A study of Mus musculus with 49 samples.

Results

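The libraries described here are the 12 with the most and the 12 with the least transthyretin mRNA (Ttr) for their group, 24 of the 49 frontal cortex libraries of a mouse RNA-seq study of amylin and high fat diet. For each library the mean log2 Ttr value of its group was subtracted, the libraries were ranked by the remainder, and the extremes formed the Ttr-high and Ttr-low sets, with 25 libraries in neither. All mice were on a high fat diet. CreTM (10 libraries) and CreVE (10 libraries) were mice with a conditional human amylin transgene after 4 months of diet, injected with tamoxifen (CreTM) or vehicle (CreVE) and collected 2 months after injection. 4MHFA (10 libraries) were mice labelled AKO, an amylin knockout, and 4MHFW (10 libraries) were WT mice, both after 4 months of diet. 2MHF (9 libraries) were WT mice after 2 months of diet. The labels name no promoter, Cre driver, strain, sex, age, litter or batch, and they do not say whether the number in a title stands for an animal, so p-values measure only the spread between these libraries. A library is named below by its group and that number, as in 4MHFW 13.

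The choroid plexus is a sheet of ciliated secretory epithelium over a fenestrated vascular core, which hangs in the brain ventricles and makes cerebrospinal fluid. Its epithelium is the main source of Ttr in the brain. The secreted protein binds thyroid hormone and, through retinol-binding protein, retinol. The frontal cortex itself holds no choroid plexus, so in cortex samples Ttr is widely used as a sign of plexus tissue or of its RNA.

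Depth was 29.2 to 75.6 M reads per library (M, 1e+06), with a median of 37.7 M in the Ttr-high set and 47.9 M in the Ttr-low set. Values are normalised reads, that is reads divided by a size factor of the library, or the deposited log2(normalised reads + 1). Iapp, the gene of mouse amylin, had reads in 10 of 10 libraries labelled AKO (46.2 to 71.0 normalised reads) and in 0 of 10 4MHFW libraries, which goes against the knockout label, so that group is called the libraries labelled AKO. Olfactory epithelium RNA was highest in 2 libraries of that group. Cyp2g1, an enzyme of that epithelium, was at 5042 normalised reads in 4MHFA 14 and 2588 in 4MHFA 19. The first of these is in the Ttr-low set and the second in the Ttr-high set. The median was 4.61, and elsewhere Cyp2g1 was at most 504, in 4MHFA 21. Smaller amounts stood in libraries of both sets, such as 399 in the Ttr-low 2MHF 39 and 138 in the Ttr-high 2MHF 35.

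Ttr was scarce in all 49 libraries. It had 2597 reads in 2190 M, or 1.19 per M, and 13987 of the 24495 genes in the table had a higher median. In the Ttr-high libraries Ttr was at 37.6 (lowest), 72.4 (median) and 680 (highest) normalised reads, and in the Ttr-low libraries at 1.27, 3.21 and 20.4. The sets do not overlap: all 12 Ttr-high libraries were above every Ttr-low library on this scale too, without centring on the group. The group-adjusted difference was 4.19 log2 units, 18.3-fold, and since Ttr chose the sets it is a description with no test. In reads, the Ttr-high libraries held 34 to 508, 1422 in all, and the Ttr-low libraries 1 to 19, 74 in all. Of the 12 Ttr-low libraries, 7 had at most 4 Ttr reads, so their rank rests on very few reads. The boundary at the upper end fell between group-centred values of 1.11 (inside) and 1.005 (outside), and at the lower end between -1.15 (inside) and -1.06 (outside), with no gap at either boundary.

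**Figure D1:**
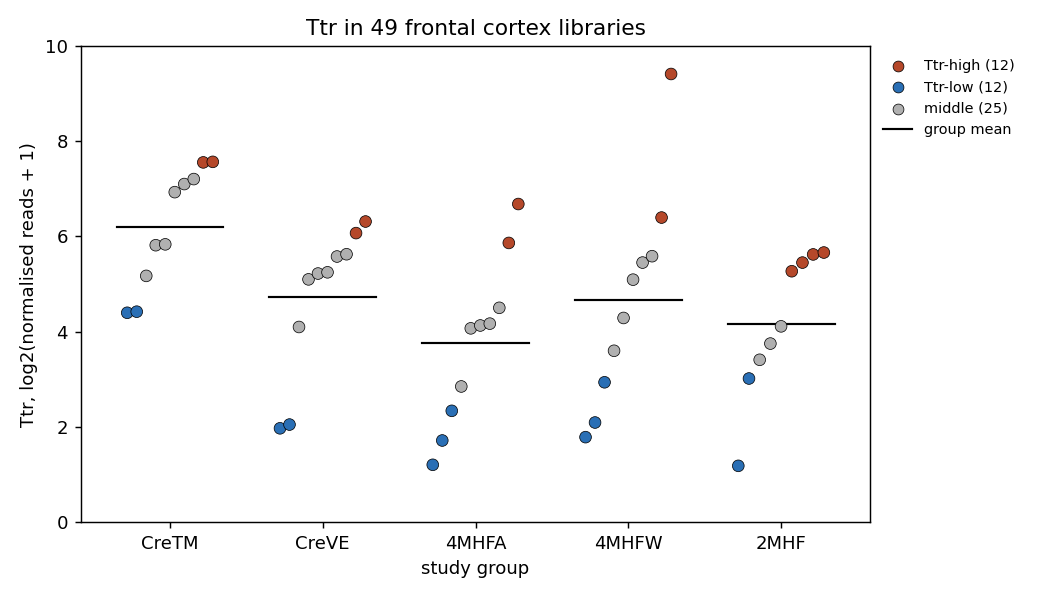
Ttr as log2(normalised reads + 1) in each of the 49 libraries, by study group, with the group mean as a line and the Ttr-high (12), Ttr-low (12) and middle (25) libraries coloured. The library 4MHFW 13 stands at 9.41, and every group has libraries in both sets.

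Each group gave libraries to both sets. The Ttr-high set took 2 each from CreTM, CreVE, 4MHFA and 4MHFW and 4 from 2MHF. The Ttr-low set took 2 each from CreTM, CreVE and 2MHF and 3 each from 4MHFA and 4MHFW. The library 4MHFW 13 held 508 of the 1422 Ttr reads of its set, at 16.4 reads per M, and the next highest Ttr value of the 49 was 189 normalised reads in CreTM 45.

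The name choroid plexus-rich was checked against 12 genes that define the plexus epithelium, chosen from the choroid lists after their values were seen. These were the potassium channel subunit Kcne2, the folate receptor Folr1, the bicarbonate transporter Slc4a5, the transcription factor Otx2, the tight junction gene Cldn2, coagulation factor F5, the membrane protein gene Tmem72, the monocarboxylate transporter Slc16a8, the calmodulin-like gene Calml4, the metalloreductase Steap1, the BMP and Wnt antagonist Sostdc1 and the FGF23 co-receptor Kl. Their summed level was 143, 237 and 716 normalised reads (lowest, median and highest) in the Ttr-high libraries and 140, 225 and 435 in the Ttr-low libraries. The sets overlap, with 4MHFW 13 alone above the highest Ttr-low library. Without 4MHFW 13 the Ttr-high libraries had a median of 236 and a highest value of 386. The mean of the sum was higher in the Ttr-high libraries in 4 of the 5 groups and lower in 2MHF, at 183 in 4 Ttr-high and 235 in 2 Ttr-low libraries. For 11 of the 12 genes the median was at or under 20 normalised reads in both sets. Slc16a8 was at 0 in 7 Ttr-high and 10 Ttr-low libraries, and Kcne2 in 2 Ttr-high and 6 Ttr-low libraries. Much of the sum was Kl, at 494 of 716 in 4MHFW 13 and 143 of 195 in CreTM 33. In 4MHFA 14 Kl was 119 of 435. The sum is thus in large part a measure of Kl. It did not separate the sets. With so few reads in the other 11 genes, the sum cannot show whether plexus RNA differed between the sets. The sets are therefore called by Ttr alone.

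**Figure D2:**
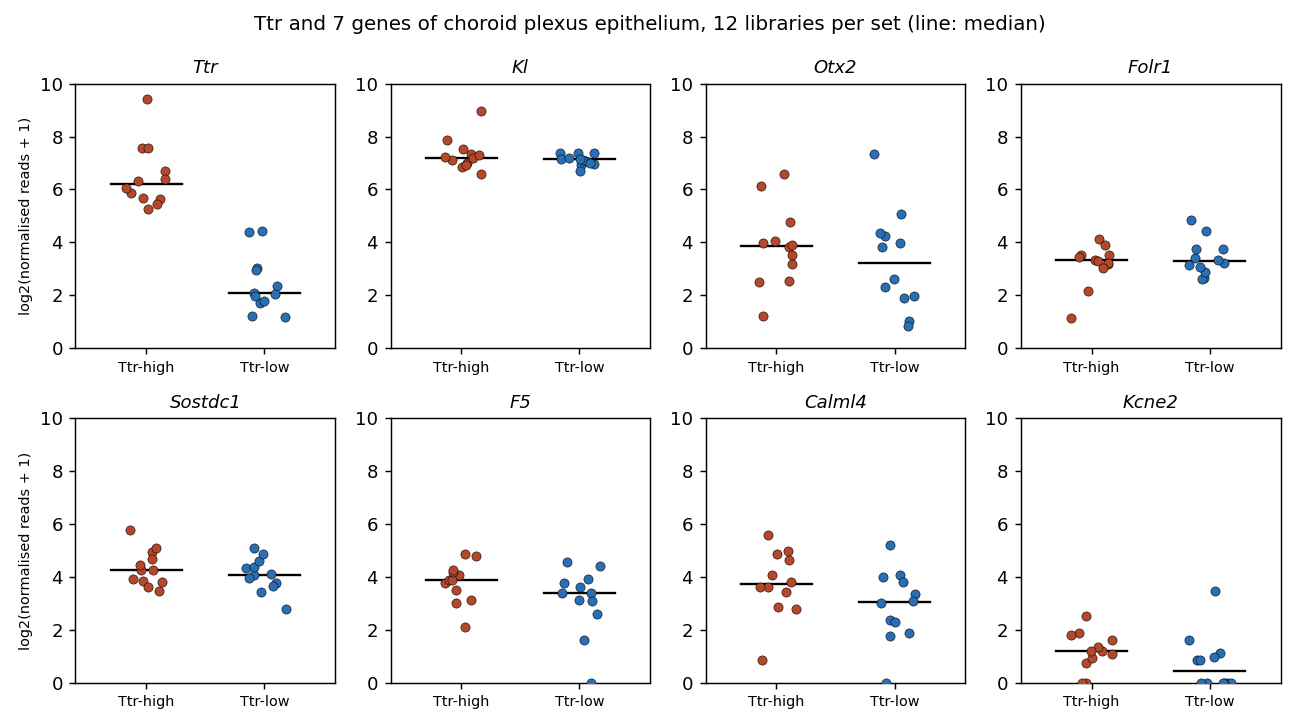
Ttr and 7 genes of choroid plexus epithelium in the 12 Ttr-high (left in each panel) and 12 Ttr-low libraries, as log2(normalised reads + 1), each point a library and the line the median of the set. Of the 8 genes plotted only Ttr, which formed the sets, separates the points, and the highest Kl value is 4MHFW 13.

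By library, most of the highest sums stood at high Ttr. The sum was highest in 4MHFW 13 (716, with Ttr at 680), then in CreTM 9 (507, with Ttr at 121) and CreTM 18 (454, with Ttr at 136), both in neither set. The fourth highest was the Ttr-low library 4MHFA 14, at 435 with Ttr at 4.06, which is 1 of the libraries with olfactory epithelium RNA and ranked 42 of 49 by Ttr. The next sums were 386 in 4MHFA 19, 351 in 4MHFW 23, 316 in CreVE 40 and 304 in CreTM 27, which ranked 11, 19, 9 and 12 of 49 by Ttr. The library 4MHFA 14 had the highest values of the 49 for Otx2 (160), Folr1 (27.7) and Steap1 (36.5), and for the keratin gene Krt18 (398). Of the 66 listed choroid epithelium genes, 10 were highest in 4MHFA 14, 8 in CreTM 9, 7 in CreVE 3 and 6 in 4MHFW 13.

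**Figure D3:**
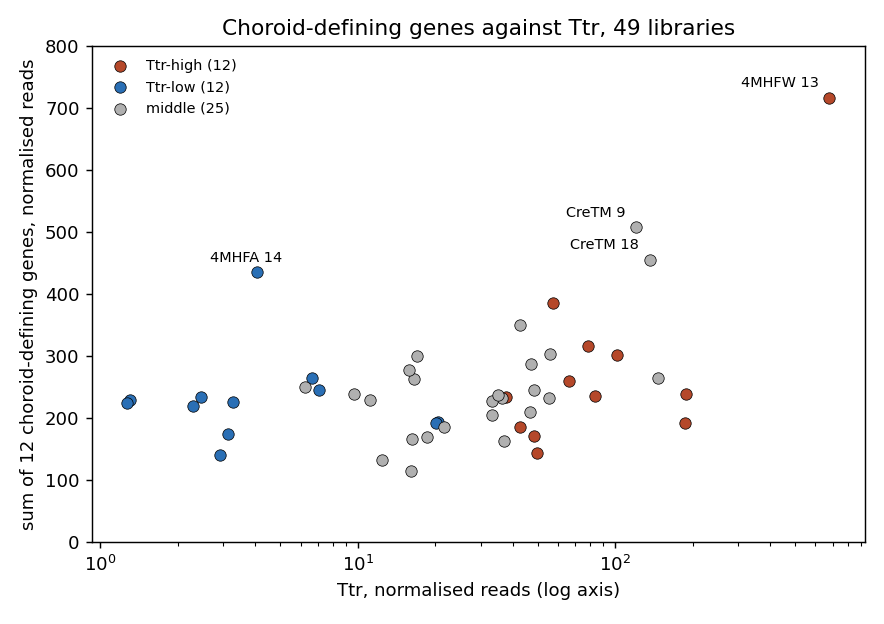
Summed level of the 12 choroid-defining genes against Ttr (log axis) in normalised reads, each point 1 of the 49 libraries. The Ttr-low library 4MHFA 14 has a sum of 435 at a Ttr of 4.06, and the Ttr-high and Ttr-low points overlap in the sum.

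The library 4MHFW 13 differed from the other 48 in more than Ttr. Kl was at 494 normalised reads there and 284 in the next library, the tight junction gene Cldn1 at 237 and 121, the carbonic anhydrase Car14 at 446 (the highest of 49) and Slc4a5 at 10.7. As mean levels of marker lists, hippocampal neurons, thalamic neurons and astrocytes were each highest of 49 there, and striatal projection neurons ranked 41 of 49. C1ql2, of dentate granule cells, was at 1402 normalised reads in 4MHFW 13 and 268 in the next library. Prox1, a granule cell transcription factor, was at 737 and 354, and Fibcd1, of hippocampal CA1, at 3475 and 1296. Prkcd, a protein kinase C gene of thalamic neurons, was at 1723 and 1070. The striatal gene Ppp1r1b, the phosphoprotein DARPP-32, was lowest of 49 there, at 2900 normalised reads. In bulk tissue, more or fewer cells of a type and more or less RNA per cell cannot be told apart, and the part of these other tissues in the Ttr value of this library was not tested.

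Ttr aside, no gene could be shown to differ between the sets. With limma on the deposited log2 values and group as a term, 0 of 15197 genes passed an adjusted p of 0.05 (Benjamini-Hochberg), which is 0% called, and limma-voom on recovered reads also gave 0. At an unadjusted p under 0.05 there were 684 genes, 4.5% of those tested, with limma and 648 with limma-voom. The smallest adjusted p was 0.246, for Ints2, a subunit of the Integrator complex that processes small nuclear RNAs. Ints2 was at 577, 660 and 793 normalised reads (lowest, median and highest) in the Ttr-high libraries and 660, 771 and 835 in the Ttr-low libraries, a difference of -0.22 (SE 0.04), and the sets overlap. The 95% interval of a gene, from limma's SE with 18 residual degrees of freedom, reached 0.119 log2 units to either side at the median. From the lower to the upper quartile it reached 0.0805 to 0.223.

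Of the 66 choroid epithelium genes in 5 lists, 49 had enough reads to be tested and 17 did not. Of the 49, 0 were called, as over all genes. Values were higher in the Ttr-high libraries for 20 and lower for 29, with a median of -0.04 against -0.003 over all 15197 genes. At an unadjusted p under 0.05 there were 3 higher and 1 lower. Only 5 of the 12 defining genes were among the 49. Of these, Calml4, Otx2, F5 and Kl had higher values in the Ttr-high libraries. Sostdc1 also had the higher median there, and its ranges are given below. The lists also hold genes expressed outside the plexus, such as Atp1b1.

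**Figure D4:**
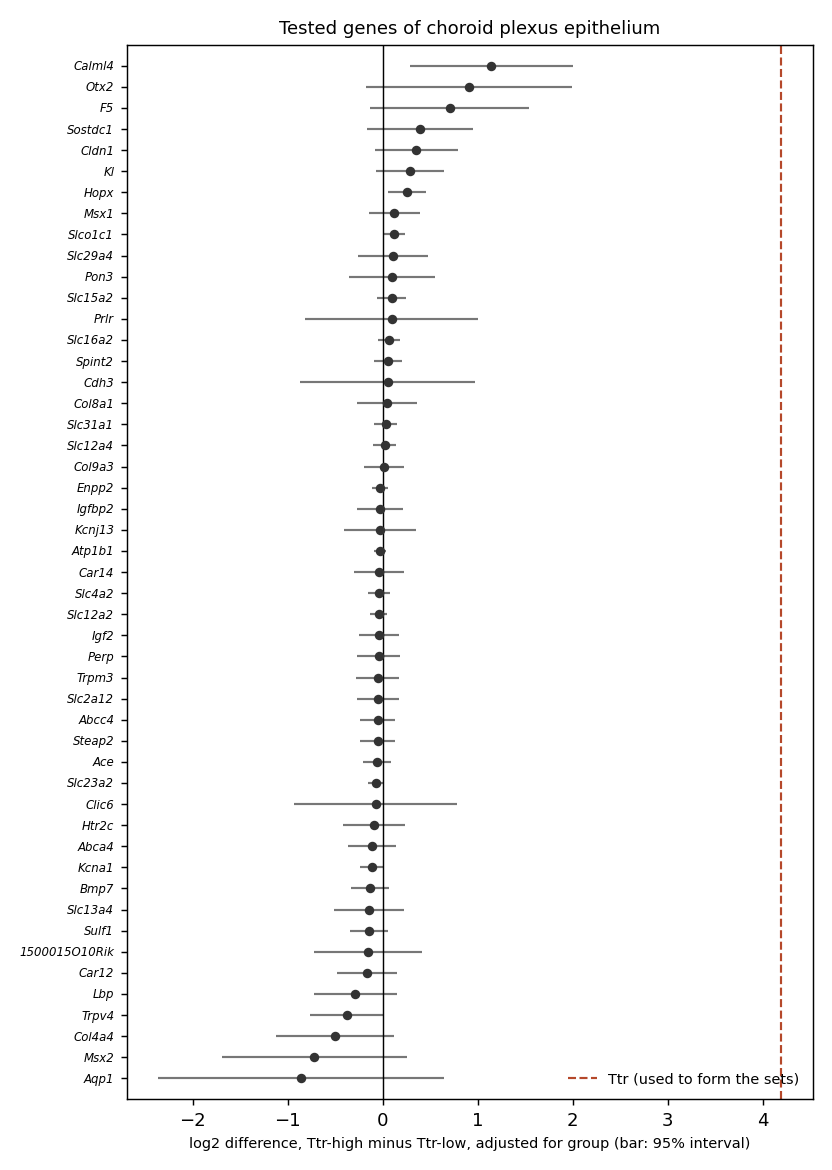
Group-adjusted log2 difference, Ttr-high minus Ttr-low, of the 49 tested choroid epithelium genes, with 95% intervals. The intervals use limma's SE with 18 residual degrees of freedom, so one can cover 0 at a limma p just under 0.05. The dashed line is Ttr at 4.19. The differences run from -0.86 (Aqp1) to 1.14 (Calml4), 20 above and 29 below 0.

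Genes of ion and water transport, which drive fluid secretion, had lower values in the Ttr-high libraries for 11 of 12 tested members, with a median of -0.05. Aqp1, the water channel of the apical membrane, was at 11.2, 75.8 and 391 normalised reads (lowest, median and highest) in the Ttr-high libraries and 16.3, 147 and 700 in the Ttr-low libraries. The ranges overlap, and the difference was -0.86 (SE 0.72, limma adjusted p = 0.995). Slc12a2, the NKCC1 cotransporter of the apical membrane, had a difference of -0.04 (SE 0.04), and Atp1b1, a subunit of the sodium pump that neurons also express, -0.03 (SE 0.03). Trpv4, an osmosensitive cation channel, was at 20.8, 47.3 and 75.5 in the Ttr-high libraries and 36.6, 56.0 and 92.3 in the Ttr-low libraries, a difference of -0.38 (SE 0.18) with an unadjusted limma p of 0.048 and an adjusted p of 0.995. The chloride channel gene Clic6, among the most plexus-restricted of the list, was at 43.6, 127 and 524 in the Ttr-high and 46.5, 134 and 503 in the Ttr-low libraries. Both sets of Clic6 values cover nearly the same range.

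Solute transporters were higher for 5 and lower for 6 of 11 tested members. Slco1c1, a thyroxine transporter that brain endothelium shares, was at 1909, 2513 and 2979 in the Ttr-high and 1941, 2205 and 2767 in the Ttr-low libraries, a difference of 0.12 (SE 0.05, unadjusted limma p = 0.032). The sulfate transporter Slc13a4, which leptomeninges also express, differed by -0.15 (SE 0.18). Folr1, below the filter, was at 1.19, 9.01 and 16.5 in the Ttr-high and 5.14, 8.71 and 27.7 in the Ttr-low libraries, so its medians were close and its highest value stood in the Ttr-low set.

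Secreted proteins and receptors were higher for 5 and lower for 9 of 14 tested members. Kl was at 94.5, 146 and 494 in the Ttr-high and 103, 139 and 167 in the Ttr-low libraries. Its difference of 0.28 (SE 0.17, unadjusted limma p = 0.11) was 0.11 without 4MHFW 13. F5 was at 3.32, 13.9 and 28.1 in the Ttr-high and 0, 9.45 and 22.9 in the Ttr-low libraries, a difference of 0.70 (SE 0.40). Sostdc1 was at 10.2, 18.1 and 53.5 in the Ttr-high and 5.91, 16.1 and 33.2 in the Ttr-low libraries, and the ranges of both genes overlap. Enpp2, or autotaxin, which oligodendrocytes also express, and the growth factor gene Igf2, which leptomeninges also express, differed by -0.03 (SE 0.04) and -0.04 (SE 0.10).

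Junction and matrix genes were higher for 6 of 8 tested members. Calml4 was at 0.801, 12.3 and 46.8 in the Ttr-high and 0, 7.37 and 36.5 in the Ttr-low libraries. Its difference of 1.14 (SE 0.41, unadjusted limma p = 0.0097, adjusted p = 0.995) was the highest of the 49, and the sets overlap. Cldn1 differed by 0.35 (SE 0.21). Of 4 tested transcription factors 3 were higher. Hopx, which astrocytes also express, was at 956, 1478 and 2273 in the Ttr-high and 923, 1276 and 1847 in the Ttr-low libraries, a difference of 0.25 (SE 0.10, unadjusted limma p = 0.015) that was 0.19 without 4MHFW 13. Otx2, which specifies the plexus and keeps its identity, was at 1.32, 13.5 and 93.7 in the Ttr-high and 0.786, 9.08 and 160 in the Ttr-low libraries, a difference of 0.91 (SE 0.52, unadjusted limma p = 0.092). Each set holds 1 of the 2 libraries with the most olfactory epithelium RNA. Without these 2 libraries the difference of Otx2 was 0.95 (unadjusted limma p = 0.047, adjusted p = 0.98). Without 4MHFA 14 alone it was 1.16 (unadjusted limma p = 0.019, adjusted p = 0.96).

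Promoter windows were read for the sequence that Otx2 binds, since Otx2 acts on choroid genes including Ttr. RefSeq windows (GRCm38.p6, 250 bases before to 50 after the start) were found for 50 of the 66 genes. The OTX core TAATCC, on either strand, occurred in 4 of them (8%), Car14, Abca4, Steap2 and Ace, against 7.16% of all 27025 promoters. The windows of Car14 and Ace are given because both hold the core, and neither gene could be shown to differ between the sets: Car14 differed by -0.04 (SE 0.12) and Ace, angiotensin-converting enzyme, by -0.06 (SE 0.07). The OTX core is in capitals, in Car14 at chr3:95904636-95904935 (minus strand) and in Ace at chr11:105967698-105967997 (plus strand).
Car14: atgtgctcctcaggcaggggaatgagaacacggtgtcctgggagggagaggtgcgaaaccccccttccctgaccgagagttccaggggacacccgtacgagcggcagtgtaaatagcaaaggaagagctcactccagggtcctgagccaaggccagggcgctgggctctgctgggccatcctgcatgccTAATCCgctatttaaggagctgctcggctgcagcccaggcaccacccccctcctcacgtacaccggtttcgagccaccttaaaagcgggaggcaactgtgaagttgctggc
Ace: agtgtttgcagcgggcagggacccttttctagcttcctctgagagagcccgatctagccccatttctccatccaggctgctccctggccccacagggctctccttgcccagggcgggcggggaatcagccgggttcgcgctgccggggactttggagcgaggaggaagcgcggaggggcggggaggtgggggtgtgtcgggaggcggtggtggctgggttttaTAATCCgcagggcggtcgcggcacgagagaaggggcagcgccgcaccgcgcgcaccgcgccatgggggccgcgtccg
The RFX motif GTTGCC, of ciliary genes, occurred in 18% of the choroid windows, in 50% of 34 windows of the cilia list and in 12.7% of all promoters.

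Ttr carries thyroid hormone and retinol, and the genes of these pathways were followed as a list. Of 21 tested members 10 had higher and 11 lower values in the Ttr-high libraries, 0 were called, and the median was -0.002. Rbp4, the retinol-binding partner of Ttr, was at 340, 599.5 and 739 in the Ttr-high and 456, 565 and 640 in the Ttr-low libraries. The deiodinase Dio2, which activates thyroid hormone, differed by 0.08 (SE 0.11) and the retinol receptor Stra6 by -0.16 (SE 0.14). Of 37 tested genes of ependyma and motile cilia, which the plexus epithelium shares, 21 were higher and 16 lower, with a median of 0.01 and 0 called. Plvap, of fenestrated plexus vessels, differed by 0.05.

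Markers of other tissues were counted because a dissection that reaches a ventricle can bring in its neighbours. All 14 tested markers of striatal projection neurons had lower values in the Ttr-high libraries, with a median of -0.60. Drd2, the dopamine receptor of indirect-pathway neurons, was at 41.7, 448 and 1153 in the Ttr-high and 101, 627 and 1406 in the Ttr-low libraries, a difference of -1.25 (SE 0.61, limma adjusted p = 0.995). All 12 olfactory bulb markers were also lower, with a median of -0.56, among them Eomes, of mitral and tufted cells, by -1.12 (SE 1.06). None of these 26 genes was called by limma, and 0 of them had an unadjusted p under 0.05. Leptomeningeal fibroblast genes were lower for 19 of 22 (median -0.09) and myelin genes for 15 of 16 (median -0.07). Microglial genes were higher for 15 of 16 (median 0.06) and immediate early genes for 17 of 20 (median 0.21). Hippocampal genes were higher for 8 of 9 (median 0.14), thalamic genes for 8 of 12 (median 0.05) and astrocyte genes for 12 of 14 (median 0.05). Of each of these lists 0 members were called by limma. Genes of a list move together from library to library, so these counts are no separate tests, and the part of tissue make-up in them was not tested.

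**Figure D5:**
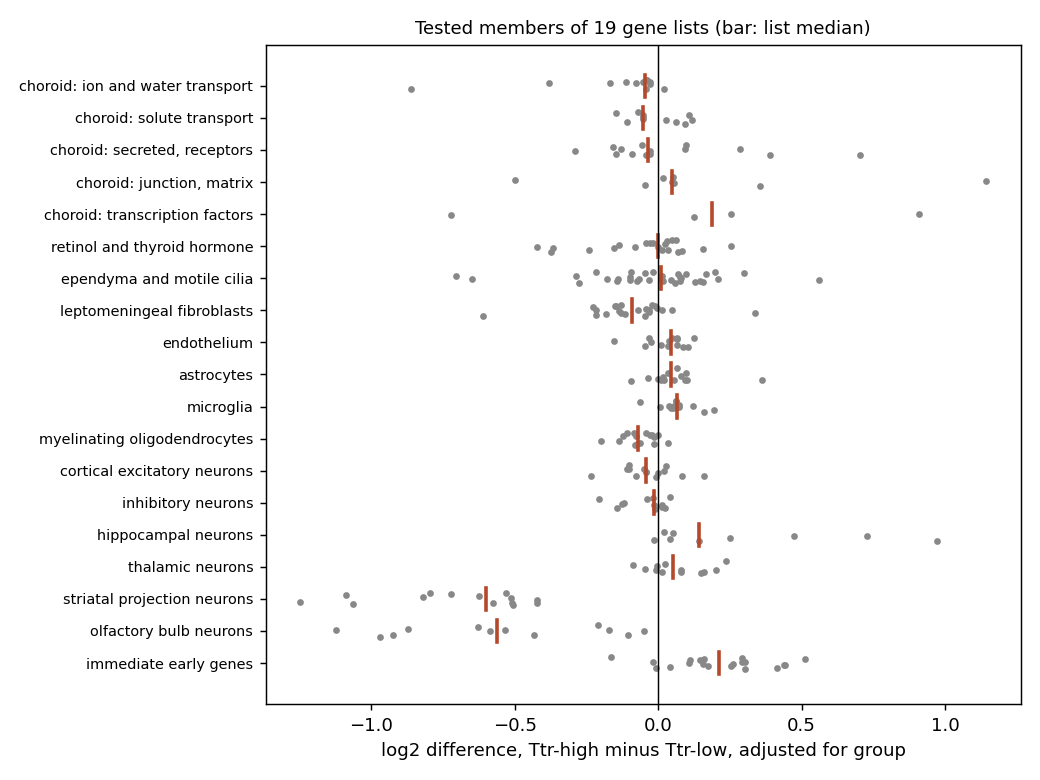
Group-adjusted log2 difference, Ttr-high minus Ttr-low, of the tested members of 19 gene lists, each point a gene and the bar the list median. The striatal (median -0.60) and olfactory bulb (median -0.56) lists lie to the left of 0, and the choroid lists lie around 0.

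In the 25 libraries that neither set holds, expression was fitted on group-centred Ttr. With limma, 0 of 15284 genes were called (0%), and limma-voom also gave 0. An unadjusted p under 0.05 was found for 720 genes (4.71%). Of 49 choroid genes tested there, 29 had a positive slope, with a median of 0.05 log2 units per log2 unit of Ttr, and 8 had an unadjusted p under 0.05. Kl had a slope of 0.43 (SE 0.15, unadjusted limma p = 0.0080, adjusted p = 0.87), and Lbp, the lipopolysaccharide-binding protein, 0.61 (SE 0.17, unadjusted p = 0.0019, adjusted p = 0.87). Lbp had the other sign between the sets, at -0.29 (SE 0.21). All 14 striatal genes had a positive slope (median 0.57) in these libraries, the other direction from the sets, and all 12 olfactory bulb genes a negative one (median -0.69). Of 37 tested genes of ependyma and motile cilia, 33 had a positive slope (median 0.18) and 8 an unadjusted limma p under 0.05. Slopes were positive for 20 of 22 leptomeningeal genes (median 0.20), 16 of 16 myelin genes (median 0.11) and 3 of 14 astrocyte genes (median -0.01). None of these genes was called, and since genes of a list move together, these counts are no separate tests.

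The genes most like Ttr over the 49 libraries, among 13579 with a mean of at least 50 normalised reads, were ranked by Pearson's r of group-centred values. These values share the libraries that formed the sets, and are a description with no test. Acadsb, a mitochondrial acyl-CoA dehydrogenase, had r = 0.60 (Spearman's rho 0.56, and r = 0.54 without the 2 libraries farthest in Ttr). Next were Rnf182 (r = 0.55), Wipi1 (0.54), Pygb (0.49), Gpr161 (0.49), Plcg2 (0.48), Egfr (0.47) and Hopx (0.47). Of these 8 only Hopx is on a choroid list. The choroid genes next in the ranking were Kl at 41 (r = 0.40), Slco1c1 at 211 (r = 0.32) and Cldn1 at 351 (r = 0.28) of 13579. In a limma slope on group-centred Ttr over all 49 libraries, no gene was called and 674 had an unadjusted p under 0.05, and limma-voom was not run for this slope. Kl had a slope of 0.12 (unadjusted p = 0.0055), Otx2 of 0.28 (unadjusted p = 0.014) and Calml4 of 0.32 (unadjusted p = 0.0070) log2 units per log2 unit of Ttr, each with an adjusted limma p of 0.99996. Gpr161, a receptor of primary cilia, was at 1852 normalised reads in 4MHFW 13 and 835 in the next library, and its r was 0.31 without the 2 farthest libraries.

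Ttr was then compared between the study's groups, a contrast the ranking did not use, since group means were subtracted. On the log2 scale Ttr was at 6.20 ± 1.24 in CreTM and 4.73 ± 1.55 in CreVE (SD, n = 10 each), a difference of 1.47 (SE 0.59, unadjusted limma p = 0.021, adjusted p = 0.9998). The libraries labelled AKO averaged 3.75 ± 1.75, against 4.66 ± 2.27 for 4MHFW (n = 10 each; difference -0.91, SE 0.87, limma adjusted p = 0.67). Against 2MHF (4.16 ± 1.51, n = 9), 4MHFW differed by 0.50 (SE 0.84, limma adjusted p = 0.74), and CreVE against 4MHFW by 0.06 (SE 0.82, limma adjusted p = 0.98). None of these differences passed over all genes, and the ranges of the groups overlap.

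Some genes of the choroid lists were called between groups in which Ttr could not be shown to change, as were genes outside the lists. CreTM against CreVE called 0 of 50 tested choroid genes, with 0% called over all genes (503 genes, 3.3%, at an unadjusted p under 0.05, and 0 called with limma-voom). In the libraries labelled AKO against 4MHFW, Spint2, a protease inhibitor of epithelia, rose by 0.38 (SE 0.07, limma adjusted p = 0.0080), 1 of 50 against 0.785% of all genes. In 4MHFW against 2MHF 4 of 50 rose, against 8.68% called over all genes: Slc12a2 by 0.29 (SE 0.07), the cation channel gene Trpm3 by 0.45 (SE 0.12), Lbp by 0.97 (SE 0.26) and the homeobox gene Msx1 by 0.49 (SE 0.14). In CreVE against 4MHFW 1 of 50 rose and 4 fell, against 6.17% over all genes. The peptide transporter Slc15a2 rose by 0.34 (SE 0.10). 1500015O10Rik fell by 0.94 (SE 0.20), Car14 by 0.37 (SE 0.08), Slc12a2 by 0.27 (SE 0.06) and the anion exchanger gene Slc4a2 by 0.22 (SE 0.05). Among retinol genes, Cyp26b1, which clears retinoic acid, fell by 0.42 (SE 0.10) in 4MHFW against 2MHF. The last 3 comparisons share the 4MHFW libraries. The shares of 8% and 10% stand beside 8.68% and 6.17% over all genes, so these calls are no result about the choroid lists. Most of these genes are also expressed outside the plexus.

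With Ttr added as a covariate, the study's own counts of called genes moved little in 2 of the 3 comparisons that had calls. The libraries labelled AKO against 4MHFW gave 120 with Ttr and 120 without, of which 102 were shared. CreVE against 4MHFW gave 955 with Ttr and 939 without, 892 of them shared. 4MHFW against 2MHF gave 1066 with Ttr and 1324 without, 1048 of them shared. CreTM against CreVE gave 0 with limma in both fits, with 274 genes at an unadjusted p under 0.05 with Ttr and 503 without.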

How the data were processed

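Poly(A) RNA libraries were made from frontal cortex RNA with the Illumina TruSeq Stranded mRNA kit, per the labels' protocols. The authors deposited log2 values for 24495 genes. The labels and the file state no aligner, counter or genome build (not given in the sources used here). Low values fall on whole multiples of a per-library step (99.92% to 100% within 0.1 of a whole number, up to 200 reads), so each deposited log2 value is log2 of reads divided by a factor, plus 1, and reads were recovered. A fold change on this scale understates that of genes with few reads. No closest pair of replicates agreed within sampling noise (chi-square per gene of at least 6.68). A value column that matched no label (1) was not used, 7 genes not on whole reads were left out, and 27 symbols turned into dates were restored.

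Genes were tested with at least 10 normalised reads in 12 libraries (as many as the smaller group in the study comparisons), by limma 3.58.1 in R 4.3.3 with intensity trend and robust shrinkage, group as a term, two-sided, Benjamini-Hochberg adjusted over all genes tested, at 0.05. Tests of the study's groups used those groups alone. Summaries used Python 3.11.15 and pandas 2.3.3. The gene test was checked on simulated data. The gene lists, the sets and the 12 defining genes were chosen with earlier results of these data known. Named genes were members of the choroid lists, members of other lists, the gene with the smallest p and the 8 genes most like Ttr. List members outside the choroid lists that did not pass, the genes of 4MHFW 13 and 4MHFA 14, and Ints2 were named after their values were seen. The numbers in titles did not pair samples. Alternatives were limma-voom, other filters, pseudocount, set sizes, ranking and covariates, and leaving out libraries or groups.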

Additional observations from a re-analysis of the deposited data

Results flagged for a closer look

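Ttr and the 12 choroid-defining genes, with their sum, were examined within each of the 5 groups for a library set far apart from the rest of its group. Of 70 such groups of values 15 had one. Chance gives about 1 in 20 only where the groups of values are independent and not skewed. Here many values come from few reads and the sum holds the same 12 genes, so no excess over chance is claimed. The part of tissue make-up in these values was not tested. All values are normalised reads.

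In 4MHFW 13, Ttr was at 679.7, Kl at 493.7, Otx2 at 68.24, Slc4a5 at 10.7 and the sum of the 12 genes at 715.8, each far above the other 9 libraries of its group. In 4MHFA 14, the Ttr-low library with the most olfactory epithelium RNA, Folr1 was at 27.74 and Steap1 at 36.53. In CreTM 9, F5 was at 43.68 and Sostdc1 at 70.57.

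The others concern a gene each. Cldn2 was at 13.88 in 4MHFW 21 and 16.14 in CreVE 3, Tmem72 at 13.07 in 4MHFA 15, Sostdc1 at 38.21 in CreVE 16, and Slc16a8 at 4.628 in 2MHF 35 and 7.945 in CreVE 4, which come from few reads.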

How the results depend on the processing

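The comparison of Ttr-high with Ttr-low libraries called 0 genes by limma in each of 44 alternatives: limma-voom, other filters and pseudocount, sets of 8 or 16, no group term, ranking without centring, a slope over all 49 libraries, leaving out each group or each library, and the levels of the striatal, olfactory bulb, myelin or leptomeningeal lists as covariates. Genes at an unadjusted p under 0.05 ran from 335 (no group term) to 1061 (without 4MHFW 11), and were 1043 with the olfactory bulb level as covariate; the cause was not tested. Leaving out the 2 libraries with the most olfactory epithelium RNA, a choice made after seeing the data, gave 0 called and 726. Across the alternatives that compare sets Kl differed by 0.11 to 0.57 and Calml4 by 0.66 to 1.66, with the lowest adjusted p at 0.69 and 0.66. Kl was tested in 43 of these alternatives and Calml4 in 38, since Calml4 fell below the filter in the others. The difference of Ttr in CreTM against CreVE was 1.17 to 1.67, with an adjusted p of 0.87 or more, when libraries were left out in turn (added after seeing the data) or limma-voom was used.

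With the number in the titles as a replicate block, the sets gave 0 called genes (642 at an unadjusted p under 0.05), the middle libraries 0 (761) and the libraries labelled AKO against 4MHFW 113 in place of 120. The other group comparisons share fewer than 2 numbers. Same-numbered libraries in the sets correlated at -0.28 to 0.34, so the numbers were not taken to pair samples.

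The planned count-model alternatives were not run; limma-voom was the model run on recovered reads. Few Ttr reads limit the ranking: counts of 1 to 19 in the Ttr-low set leave the order within it uncertain.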
